A study of Homo sapiens with 6 samples.

Results

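TT is an established human cell line from a medullary thyroid carcinoma, a tumor of the thyroid C cells, which secrete calcitonin. Gene expression in TT cells treated with 10 μM Y15 (2 arrays) was compared with that in untreated TT cells (2 arrays), which are 4 of the 6 arrays of the study. The other 2 arrays held TT cells treated with 10 μM PF04554878 and are used here where they show how Y15 differed. A probe entered the comparison when it was detected (detection p-value below 0.01 against the negative control beads) on at least 2 of the 4 arrays. This kept 17985 of 47317 probes, and 14368 of them named 11035 genes. Each gene was represented by its brightest kept probe. Y15 inhibits focal adhesion kinase (FAK, coded by PTK2) at its autophosphorylation site, and PF04554878, or defactinib, inhibits the kinase domain. Per the methods of the study, duplicate plates were treated for a day, Y15 was dissolved in PBS and PF04554878 in DMSO, and the control plates received no compound. The labels name no vehicle, so a compound and its solvent cannot be told apart. All arrays shared a single cell line and the treated arrays a single dose and time. The arrays of a group thus came from separate plates of the same line, and p-values measure only the spread between such plates. In assays of the study, most TT cells detached within a day above a Y15 dose lower than that of the arrays. A large part of the cells died at that lower dose. The sources do not say whether detached cells were collected with attached ones. The part of detaching or dying cells in the changes below was not tested.

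FAK sits at the contacts where integrins tie cells to the matrix, and it passes signals from these contacts to growth, survival and migration. Cells that accumulate damaged protein turn on chaperone genes through heat shock factor HSF1, which binds repeated GAA and TTC units in promoters. In the integrated stress response, kinases that sense stress slow translation while the transcription factors ATF4 and CHOP (coded by DDIT3) are made. Genes of mitosis are controlled through promoters with CCAAT boxes and a TTTGAA element near the start site, while genes of DNA replication are controlled through E2F elements.

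The mean intensity above background was lower after Y15, at 169 and 181 against 421 and 353 on the untreated arrays, or 0.452 times their mean, with 252 and 242 after PF04554878. Detected probes numbered 17474 and 18488 in untreated cells but 15215 and 16537 with Y15. Per the methods of the study, labeling started from a set mass of total RNA, so mean intensity is no measure of cell number or RNA per cell. The cause of the lower intensity was not tested. For a single gene in bulk RNA, fewer cells of a kind and less of its RNA per cell cannot be told apart. Levels below are log2 intensities after quantile normalization, and a change is the difference between group means on that scale, tested in limma over all 11035 genes. The median gene changed by -0.06 with quantile normalization. It changed by -0.81 when arrays were instead scaled to the median of all probes (called median scaling below), 0.04 when scaled to the median of the tested probes, and -0.10 after background correction. List medians are therefore set beside that of the median gene, for the division, replication and repair lists together. With median scaling 25 of the single-gene rises named below turned in direction. The defining C-cell marker CALCA, the calcitonin gene, was at 13.88 and 13.65 in untreated and 13.73 and 13.62 in Y15-treated cells. CHGA, RET and the transcription factor gene NKX2-1 were also detected on all 4 arrays. Of 43 markers of follicular, fibroblast, immune or endothelial cells, 5 were tested (DIO1, LUM, CD14, CD68 and HLA-DRA), and none of the 9 endothelial ones. TG, COL1A1, PTPRC and PECAM1 were not among the tested genes.

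Genes were counted as passing at an adjusted p below 0.05 (Benjamini-Hochberg) together with a change of 1.2-fold or more. In all, 4378 of 11035 genes passed (39.7%), of which 1914 were higher (17.3% of the genes tested) and 2464 lower (22.3%) under Y15. At a change of at least 2-fold, 377 genes were higher (3.42%) and 157 lower (1.42%). At 4-fold, 132 were higher and DKK1 alone was lower. With median scaling the split was 390 higher and 9070 lower (166 and 4106 at 2-fold), with scaling to the tested probes 3820 and 2980 (519 and 316), and after background correction 1902 and 2623 (723 and 697). With quantile normalization, then, the number of changes was larger among the falls, while the large changes were mostly rises. The 132 rises of 4-fold or more fell into separate kinds. In 43 of them the untreated arrays lay within 0.5 of each other, and these were led by chaperone and stress response genes, whereas in the other 89 the untreated arrays themselves lay more than 0.5 apart.

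Chaperone genes held the largest rise. HSPA6, an HSP70 chaperone made almost only under stress, was at 7.14 and 7.04 in untreated cells, 13.49 and 13.45 with Y15 and 7.23 and 7.33 with PF04554878. Its level after Y15 lay far above all other arrays, and the change was 6.38 ± 0.09 (SE, limma, adjusted p = 5.9e-09, n = 2 arrays per group), or 83.3-fold. A second, dimmer HSPA6 probe changed by 3.85. HSPA1A, the major inducible HSP70, was at 9.93 and 10.22 in untreated and 13.04 and 13.11 in Y15-treated cells, a change of 2.99 ± 0.12 (adjusted p = 3.6e-06). HSPA1B changed by 3.18 and HSPA7 by 4.47. HSPA1A and HSPA1B are near-identical copies, as are HSPA6 and HSPA7, so signal may be shared within each pair. The untreated and Y15 groups did not overlap for any of the 4 genes. The same held for 8222 of all 11035 genes, so a lack of overlap, here and below, does not mark a gene out. Under PF04554878 the HSPA1A level was 8.66 and 8.87, below both untreated arrays, and the Y15 and PF04554878 arrays differed by 4.31 ± 0.12 (adjusted p = 2.2e-07). Among all genes, 6656 (60.3%) passed in this comparison of the compounds, with 3785 higher and 2871 lower under Y15 (2341 and 3029 with median scaling).

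Of 21 tested HSP70 genes and exchange factors, 10 rose and 2 fell, with a median change of 0.22 (-0.40 with median scaling, which is 0.41 above its median gene). BAG3, which releases clients from HSP70, was at 9.44 and 9.73 untreated and 11.60 and 11.54 with Y15, a rise of 1.99. HSPH1, an exchange factor, rose by 0.78 and HSPA13 by 0.85. HYOU1, the HSP70 relative of the endoplasmic reticulum (ER), fell (change -0.59, and -0.74 by its second probe), as did HSPA14 (-0.62). HSPA8, the constitutive HSP70 of the cytosol, had a change of -0.14 (adjusted p = 0.28) and HSPA5, that of the ER, 0.15 (adjusted p = 0.24), and neither passed with quantile normalization. When arrays were scaled to the tested probes, HSPA8 passed as higher (0.78).

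DNAJ proteins bring clients to HSP70. Of 32 tested, 13 rose and 3 fell (median 0.19, or -0.59 with median scaling, 0.21 above its median gene). DNAJB1, the inducible partner of HSP70, was at 9.68 and 9.65 in untreated and 12.35 and 12.41 in Y15-treated cells. The groups were far apart, with a change of 2.72 ± 0.12 (adjusted p = 4.2e-06). Under PF04554878 it was at 8.04 and 8.38, below both untreated arrays. DNAJB9, an ER co-chaperone, rose by 2.42, DNAJA4 by 1.12 and DNAJB2 by 1.02, while DNAJC9 (-0.57), DNAJC14 (-0.53) and DNAJC24 (-0.38) fell.

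Among 21 small heat shock proteins, HSP60 and HSP90 genes and their partners, 9 rose (5 without Y15 array 2) and 1 fell (median 0.26, or -0.44 with median scaling, 0.36 above its median gene). SERPINH1, the collagen chaperone HSP47, was at 7.94 and 7.98 in untreated and 10.20 and 10.37 in Y15-treated cells and was not detected on the PF04554878 arrays. Its groups did not overlap, with a rise of 2.32 ± 0.10 (adjusted p = 4e-06). CRYAB, the small heat shock protein alphaB-crystallin, was detected on 1 of 2 untreated arrays (6.92 and 6.93) and was at 9.06 and 9.19 after Y15 (change 2.20). HSPB8 rose by 1.64 and HSPB1, which coats unfolded proteins, by 1.43. The single fall was TRAP1 (-0.56), the mitochondrial HSP90. HSP90AA1 (0.30, adjusted p = 0.23), HSP90AB1 (0.21, 0.11), HSPD1 (0.26, 0.080) and HSF1 itself (0.21, 0.20) did not pass. Of 14 genes of the CCT chaperonin and prefoldin, which fold actin and tubulin, 2 rose and 4 fell with a median of -0.05, near that of the median gene and 0.18 below it with median scaling.

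**Figure D1:**
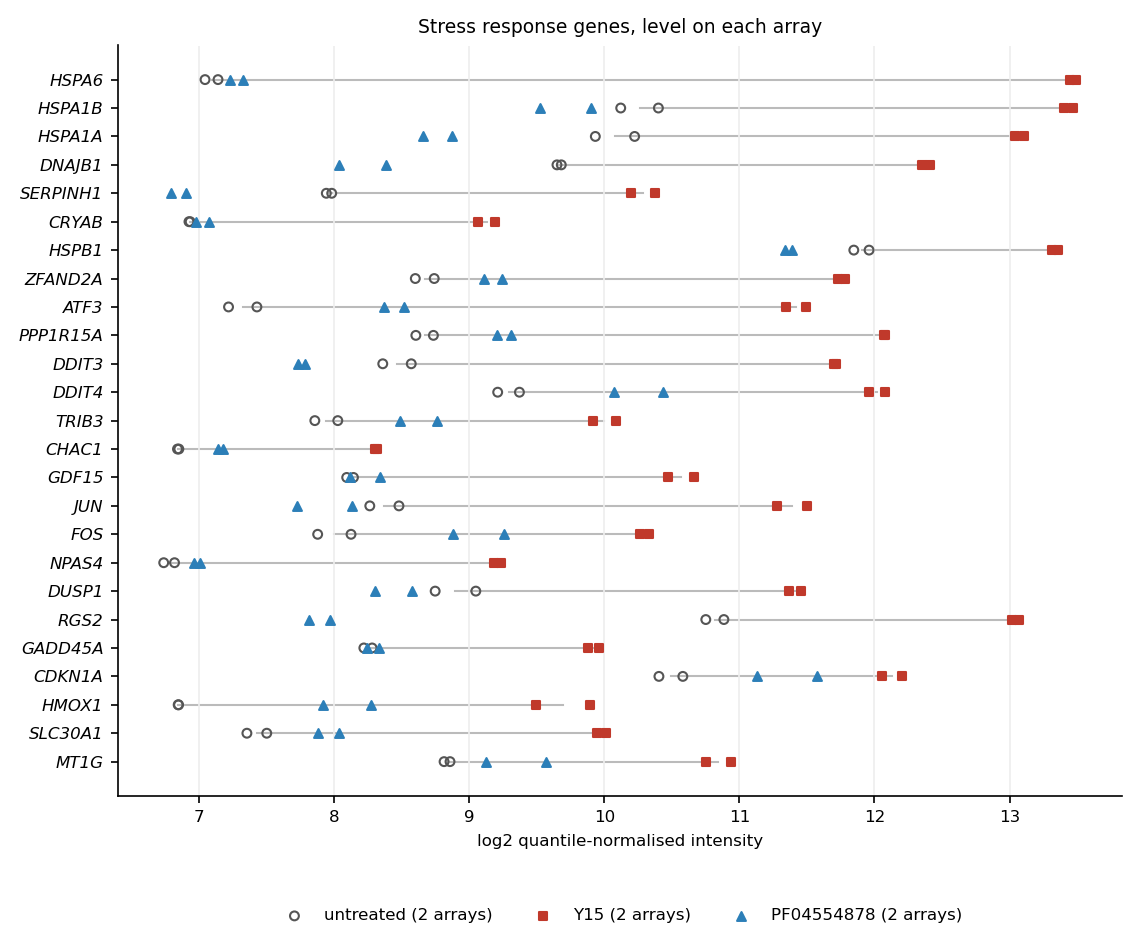
Level of 25 stress response genes on each array, as log2 quantile-normalised intensity, with open circles for untreated cells, squares for Y15 and triangles for PF04554878 (2 arrays each). Grey lines join the means of the untreated and Y15 groups, and the Y15 arrays lie to the right of both untreated arrays in every gene shown, most of all in HSPA6 (change 6.38). The genes were picked with their results known, so the shared rise under Y15 follows from the choice. HSPA8, HSPA5, HSP90AA1, HSF1 and EGR1, which did not pass, are not shown. CHAC1, HMOX1 and NPAS4 were not detected on the untreated arrays.

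Promoters of chaperone genes are shown because the largest rises came from this group. RefSeq promoters (assembly GRCh38.p14, 250 bases before to 50 after the start of the gene) were matched by symbol for 8934 of the 11035 genes and for 33 of the 43 genes that rose 4-fold with untreated arrays within 0.5. An inverted pair of heat shock units (GAANNTTC or TTCNNGAA, which overlap where 3 units follow each other) was searched on both strands. It was in 9 of the 33 promoters (27.3%), against 895 of 8934 tested genes (10%) and 3738 of 27305 promoters in the table (13.7%). In the rises of 2-fold or more with untreated arrays within 0.5 it was in 28 of 203 (13.8%), near the share of all promoters, and in those with untreated arrays apart in 11 of 91 (12.1%). These 9 were DDIT4, DEPP1, HSPA1A, HSPA1B, HSPA6, IER5, JUN, SERPINH1 and ZFAND2A. At least 3 units in a row were in HSPA6 and SERPINH1, or 2 of 33 (6.06%), against 30 of 8934 (0.336%) and 133 of 27305 (0.487%). The promoters of HSPA6 (chr1:161524290-161524589, plus strand), SERPINH1 (chr11:75562003-75562302, plus), HSPA1A (chr6:31815293-31815592, plus) and ZFAND2A (chr7:1160147-1160446, minus) follow 5′ to 3′, with the heat shock pairs in capitals.
HSPA6: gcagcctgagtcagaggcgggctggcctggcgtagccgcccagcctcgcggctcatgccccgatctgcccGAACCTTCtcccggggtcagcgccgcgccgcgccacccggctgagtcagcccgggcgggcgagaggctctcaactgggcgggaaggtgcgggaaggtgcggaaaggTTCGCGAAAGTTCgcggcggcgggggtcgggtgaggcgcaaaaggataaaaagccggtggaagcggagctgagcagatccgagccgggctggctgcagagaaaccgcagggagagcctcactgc
SERPINH1: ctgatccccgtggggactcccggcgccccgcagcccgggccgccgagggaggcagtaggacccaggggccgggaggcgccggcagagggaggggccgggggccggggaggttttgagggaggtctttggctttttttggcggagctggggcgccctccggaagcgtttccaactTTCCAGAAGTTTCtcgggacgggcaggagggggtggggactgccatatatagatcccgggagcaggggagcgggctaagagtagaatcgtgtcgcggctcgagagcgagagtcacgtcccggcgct
HSPA1A: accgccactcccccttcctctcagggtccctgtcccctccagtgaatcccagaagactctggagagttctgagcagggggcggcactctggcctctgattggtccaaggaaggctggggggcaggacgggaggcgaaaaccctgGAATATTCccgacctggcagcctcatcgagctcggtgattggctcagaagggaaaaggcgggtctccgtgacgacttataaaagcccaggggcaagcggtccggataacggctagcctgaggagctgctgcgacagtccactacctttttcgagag
ZFAND2A: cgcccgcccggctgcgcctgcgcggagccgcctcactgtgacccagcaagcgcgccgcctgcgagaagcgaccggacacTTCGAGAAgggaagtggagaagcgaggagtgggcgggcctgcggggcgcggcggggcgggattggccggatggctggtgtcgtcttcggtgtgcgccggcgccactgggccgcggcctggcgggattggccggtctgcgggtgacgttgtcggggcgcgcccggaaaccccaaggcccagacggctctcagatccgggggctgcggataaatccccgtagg
The pair nearest the start began 69 bases before it in HSPA6, 71 in SERPINH1, 106 in HSPA1A and 171 in ZFAND2A. The matches are letters in a window and no measure of binding.

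ZFAND2A, a heat shock-induced protein of the proteasome, was at 8.74 and 8.60 in untreated and 11.73 and 11.78 in Y15-treated cells. Its Y15 levels stood clear of all other arrays (change 3.08 ± 0.10, adjusted p = 6.6e-07). It led 19 ubiquitin and p97 stress genes, of which 10 rose and 1 fell (median 0.35, or -0.72 with median scaling, 0.09 above its median gene). FBXO32, the ubiquitin ligase subunit atrogin-1, rose by 2.81 and by 1.27 on its second probe. ZFAND5 rose by 1.196 and SQSTM1, the autophagy receptor p62, by 0.93. UCHL1, a deubiquitinase of neuroendocrine cells, fell (-0.84).

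Genes of the ATF4 and CHOP axis rose together. Of 27 tested, 19 rose and 1 fell, and 13 rose at least 2-fold, with a median of 0.90 (0.15 with median scaling, 0.96 above its median gene). ATF3, a stress-induced repressor and activator, was at 7.43 and 7.22 in untreated, 11.34 and 11.49 in Y15-treated and 8.37 and 8.52 in PF04554878-treated cells. The Y15 arrays were highest, and the change was 4.10 ± 0.11 (adjusted p = 3.7e-07), although a second ATF3 probe changed by 0.51. PPP1R15A, the phosphatase subunit GADD34 that restarts translation, was at 8.60 and 8.73 untreated and 12.07 and 12.08 with Y15 (10.6-fold). DDIT3, or CHOP, was at 8.57 and 8.36 in untreated and 11.72 and 11.70 in Y15-treated cells, and at 7.78 and 7.73 under PF04554878, the lowest of the 3 groups. Y15 exceeded PF04554878 by 3.95 ± 0.10 for DDIT3 (adjusted p = 1.4e-07).

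DDIT4, an inhibitor of mTORC1, rose by 2.73. NUPR1 rose by 2.41 on its brightest probe and 2.10 on the next. TRIB3, a pseudokinase induced by CHOP, rose by 2.06 and CEBPB by 1.58. CHAC1, which degrades glutathione, went undetected in untreated cells and was at 8.32 and 8.30 after Y15, at least 2.63-fold higher. A fold of this kind sets the mean of the brighter group against the lowest detected signal of each other array, or the signal of the probe itself where that is higher. ATF4 itself, which is controlled largely through translation, rose by 0.67 and by 1.34 on its second probe. Of the kinases that start the response, EIF2AK4 (GCN2) rose (1.78), EIF2AK1 (HRI) fell (-0.27, a call that several alternatives ended), and EIF2AK3 (PERK) had a change of -0.14 (adjusted p = 0.31). The letters TGATGNAAT, a form of the composite element that C/EBP and ATF4 bind, were in none of 22 promoters of this list. They were in only 46 of 8934 tested genes (0.515%), too few for their absence from 22 promoters to be informative.

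Amino acid supply is a target of ATF4, and of 22 genes, 7 rose (4 without Y15 array 2) and 4 fell (median 0.12, or -0.67 with median scaling, 0.14 above its median gene). SLC3A2, a subunit of amino acid exchangers, rose by 1.96 and by 1.36 on its second probe. ASNS, asparagine synthetase, was at 9.84 and 9.77 in untreated, 11.20 and 11.09 in Y15-treated and 11.81 and 12.06 in PF04554878-treated cells. Both compounds were above untreated cells and PF04554878 was above Y15 (difference -0.79 ± 0.11, adjusted p = 0.00030). SHMT1 (at least 1.37-fold lower since neither Y15 array detected it) and PSPH (-0.54), enzymes of serine metabolism, fell. Of 18 cytosolic aminoacyl-tRNA synthetase genes, 10 rose and 1 fell (median 0.34, or -0.75 with median scaling, 0.06 above its median gene), with FARSB (1.26, whose untreated arrays lay more than 0.5 apart), TARS1 (0.99) and HARS1 (0.79) highest and IARS1, the fall, at -0.85. These synthetase counts depended on the scaling, with 1 rise and 15 falls under median scaling and 5 and 6 when scaled to the tested probes, and the rises numbered 6 without untreated array 1, 4 without Y15 array 1 and 6 without Y15 array 2. Of 29 ER chaperone and degradation genes, 6 rose (3 without Y15 array 1 and 2 without Y15 array 2) and 2 fell, with a median of -0.01 that lay 0.04 above the median gene, and 0.06 below it with median scaling.

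Most early response transcription factors rose. Of 22 tested, 19 rose and 1 fell (median 0.86, or 0.33 with median scaling, 1.13 above its median gene). With detection required on all 4 arrays, 17 of 20 rose and 1 fell. JUN, a subunit of AP-1, was at 8.26 and 8.48 in untreated, 11.28 and 11.50 in Y15-treated and 8.13 and 7.72 in PF04554878-treated cells. The Y15 levels lay above all others and the change was 3.02 ± 0.15 (adjusted p = 6.9e-06). FOS, its partner, was at 7.88 and 8.12 untreated and 10.26 and 10.33 with Y15, a rise of 2.30, and FOSB was detected on the Y15 arrays alone (at least 1.43-fold higher). NPAS4, an activity-dependent factor best known from neurons, was not detected in untreated cells and was at 9.23 and 9.18 after Y15, at least 4.89-fold higher. IER5, which acts on HSF1, rose by 2.45, SERTAD1 by 2.21, CSRNP1 by 1.83 and MAFF by 1.70. The fall was IER3 (-0.40). EGR1 (8.21 and 8.56 untreated, 7.94 and 8.19 Y15) had a change of -0.32 that did not pass (adjusted p = 0.19), and MYC rose by 0.45.

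Inhibitors of MAP kinase signaling were split. Of 17 DUSP and Sprouty genes, 8 rose and 5 fell (median 0.28, or -0.79 with median scaling, 0.01 above its median gene). DUSP1, a nuclear phosphatase of p38 and JNK, was at 9.05 and 8.75 in untreated and 11.37 and 11.46 in Y15-treated cells. Its groups did not overlap, with a change of 2.52 ± 0.13. DUSP8 (1.45), DUSP5 (1.38) and DUSP16 (1.09) also rose. The 5 falls were DUSP6 (-0.57), a phosphatase of ERK that ERK signaling itself induces, and SPRY4 (-1.12), SPRY1 (-0.60), SPRED1 (-0.51) and SPRED2 (-0.49), which restrain receptor tyrosine kinases. SPRY4 was at 10.98 and 11.44 in untreated, 10.04 and 10.13 in Y15-treated and 12.62 and 12.61 in PF04554878-treated cells. Y15 was below and PF04554878 above the untreated arrays (difference -2.53 ± 0.14, adjusted p = 2.7e-06), though the second SPRY4 probe did not pass under Y15 (-0.39).

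RGS proteins shorten G protein signals. Of 12 RGS genes, 4 rose and 2 fell (median 0.00, or -0.67 with median scaling, 0.14 above its median gene). RGS2 was at 10.88 and 10.75 in untreated, 13.07 and 13.02 in Y15-treated and 7.97 and 7.82 in PF04554878-treated cells. No array of any group overlapped with another group, Y15 was highest and PF04554878 lowest, and Y15 exceeded PF04554878 by 5.15 ± 0.10 (adjusted p = 3.6e-08). RGS1 had the same order at 9.22 and 8.91 untreated, 10.09 and 10.23 with Y15 and 7.003 and 7.09 with PF04554878, and 1 of 2 PF04554878 arrays detected it. RGS16 and RGS11 rose by 0.86 and 0.64, and RGS7 (-0.70) and RGS4 (-0.32) fell. Of 12 KLF and SP factors, 5 rose, among them KLF6 (1.26), KLF2 (1.19) and KLF9 (1.12), and KLF12, undetected on the Y15 arrays, was at least 1.26-fold lower (list median 0.29, or -0.29 with median scaling, 0.52 above its median gene).

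Clock genes were split. Of 19, 9 rose and 5 fell, with 2 falls without Y15 array 1 and 3 without Y15 array 2 (median 0.27, or -0.58 with median scaling, 0.23 above its median gene). CIART, a repressor of the clock, was at 8.38 and 8.14 in untreated and 10.65 and 10.39 in Y15-treated cells, with no overlap and a rise of 2.26. The output factors NFIL3 (1.75), DBP (1.28) and TEF (0.64) and the repressor BHLHE40 (2.02) rose. The core activators BMAL1 (-0.38) and CLOCK (-0.86) fell, but a second CLOCK probe rose by 0.77. PER2 was at 8.40 and 8.59 in untreated, 8.19 and 8.13 in Y15-treated and 10.83 and 10.96 in PF04554878-treated cells. It was slightly lower after Y15 (-0.34) and much higher under PF04554878, with a difference of -2.74 ± 0.10 between the compounds.

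Growth arrest genes were mostly higher with quantile normalization. Of 18 CDK inhibitors, GADD45 and related genes, 11 rose and 2 fell (median 0.48, or -0.22 with median scaling, 0.59 above its median gene). CDKN1A, which codes for the CDK inhibitor p21, was at 10.40 and 10.58 in untreated and 12.20 and 12.06 in Y15-treated cells. The groups did not overlap, and the rise was 1.64 ± 0.15, with 0.97 on the second probe. GADD45A was at 8.22 and 8.28 untreated, 9.96 and 9.88 with Y15 and 8.24 and 8.33 with PF04554878, highest on the Y15 arrays (rise 1.67, second probe 1.25). ZMAT3, a p53 target, rose by 1.88, but its untreated arrays lay more than 0.5 apart. SESN2, which restrains mTORC1, rose by 1.42, GADD45G by 1.81 and GADD45B, detected on 1 of 2 untreated arrays, by 1.77. RBL2 (-1.004) and RB1, which code for pocket proteins that restrain E2F factors, were the falls, and RB1, undetected on the Y15 arrays, was at least 1.33-fold lower.

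In the BCL2 family, 9 of 22 genes rose and 2 fell (median 0.22, or -0.57 with median scaling, 0.24 above its median gene). The rises included the killers HRK (9.24 and 9.49 untreated, 11.04 and 10.96 Y15, change 1.64), PMAIP1 or NOXA (1.06), BCL2L11 or BIM (0.88), BAX (0.85) and BBC3 or PUMA (0.82), and also the survival gene MCL1 (0.86). Second probes of PMAIP1 (0.05) and MCL1 (-0.04) did not pass. BCL2, the survival gene that names the family, fell (-0.39, second probe -0.43), as did BCL2L10 (at least 1.10-fold lower, since neither Y15 array detected it). BIRC5, which codes for survivin and acts in mitosis and survival, was at 10.15 and 10.19 in untreated, 8.95 and 8.91 in Y15-treated and 10.01 and 10.09 in PF04554878-treated cells. It was lowest on the Y15 arrays (change -1.24 ± 0.09). AEN, a nuclease induced by p53, rose by 0.95 and by 1.10 on its second probe.

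Secreted factors rose in 8 of 13 cases and fell in 2 (median 0.44, or -0.01 with median scaling, 0.79 above its median gene). GDF15, a stress cytokine, was at 8.14 and 8.09 in untreated, 10.66 and 10.47 in Y15-treated and 8.12 and 8.34 in PF04554878-treated cells, highest on the Y15 arrays (change 2.45). ADM, which codes for the vasodilator adrenomedullin, was at 7.69 and 7.65 untreated, 9.64 and 9.67 with Y15 and 7.36 and 7.52 with PF04554878, and showed the same pattern (change 1.99). HBEGF rose by 1.08, VEGFA by 0.93 and STC2 by 0.90. Outside this list, LEP, the gene of the fat hormone leptin, was detected in all groups and was at 7.03 and 7.38 in untreated, 9.74 and 9.48 in Y15-treated and 8.28 and 8.49 in PF04554878-treated cells, a rise of 2.41.

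Genes of nutrient sensing at the lysosome were among the rises. Of 46 autophagy and lysosome genes, 14 rose (30.4%, against 17.3% of all genes) and 4 fell (8.7%, against 22.3%). The median was 0.04 (-0.63 with median scaling, 0.18 above its median gene). With PF04554878 it was 0.33, and 13 members were higher and 19 lower with Y15 than with PF04554878. GABARAPL1, a protein of the autophagosome membrane, was at 7.71 and 7.59 untreated and 9.59 and 9.83 with Y15, and its groups did not overlap (change 2.06). FLCN rose by 2.03 and by 1.79 on its second probe, and RRAGC (1.40) and RRAGD (1.26), the GTPases that FLCN controls, rose as well. ATG14 rose by 1.17, and ATG4B fell (-0.77).

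Metallothionein and zinc transporter promoters are shown because these genes are known targets of the zinc sensor MTF1. Of 24 metallothionein and zinc transporter genes, 11 rose and 3 fell (median 0.25, or -0.47 with median scaling, 0.33 above its median gene). SLC30A1, the zinc exporter of the plasma membrane, was at 7.50 and 7.35 in untreated, 9.95 and 10.01 in Y15-treated and 8.04 and 7.88 in PF04554878-treated cells. Its Y15 arrays were highest, and the rise was 2.55 ± 0.10 (adjusted p = 2.9e-06), with 2.34 on the second probe. MT1G was at 8.81 and 8.86 untreated and 10.94 and 10.75 with Y15 (change 2.01), and MT1H at 7.66 and 7.78 untreated and 9.21 and 9.43 with Y15 (change 1.60). MT1X was at 9.41 and 9.56 in untreated, 10.53 and 10.60 in Y15-treated and 7.75 and 7.68 in PF04554878-treated cells, above the untreated arrays with Y15 and below them with PF04554878. Metallothionein genes are close copies of each other, and probes may share signal. MTF1 itself rose by 0.43. The falls were the importers SLC39A3 (-0.60, but 0.68 on its second probe), SLC39A8 (-0.47) and SLC39A10 (-0.43).
The metal response element (TGCACNC or TGCGCNC, both strands) was in the promoters of SLC30A1 (chr1:211579112-211579411, minus strand) and MT1H (chr16:56669564-56669863, plus), in capitals below.
SLC30A1: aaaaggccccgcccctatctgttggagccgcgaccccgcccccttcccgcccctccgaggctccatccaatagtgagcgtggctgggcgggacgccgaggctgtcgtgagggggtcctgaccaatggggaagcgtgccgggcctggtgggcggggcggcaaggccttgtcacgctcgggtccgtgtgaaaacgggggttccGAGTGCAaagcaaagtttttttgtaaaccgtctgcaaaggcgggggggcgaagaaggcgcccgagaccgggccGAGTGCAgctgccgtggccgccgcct
MT1H: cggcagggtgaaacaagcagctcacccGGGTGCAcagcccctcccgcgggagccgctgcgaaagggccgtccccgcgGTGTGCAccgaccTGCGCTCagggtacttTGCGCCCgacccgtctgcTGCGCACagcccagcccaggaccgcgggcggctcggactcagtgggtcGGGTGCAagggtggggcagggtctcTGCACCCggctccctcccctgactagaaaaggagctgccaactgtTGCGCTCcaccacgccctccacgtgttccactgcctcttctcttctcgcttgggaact
There were 2 matches in SLC30A1, 49 bases before and 24 after the start, and 8 in MT1H. The element is short, and 39.4% of the tested promoters and 29.3% of all promoters held at least 1 match.

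With quantile normalization, 21.9% of oxidant defense genes were higher and 12.5% lower, against 17.3% and 22.3% of all genes. Of 32 thioredoxin, glutathione and NRF2 target genes, 7 rose (4 without Y15 array 2) and 4 fell (1 and 28 with median scaling), and the median of 0.03 lay 0.08 above the median gene and, with median scaling, 0.12 below it. HMOX1, heme oxygenase, had the largest rise. It was not detected in untreated cells and was at 9.49 and 9.89 after Y15 and 7.92 and 8.27 after PF04554878, at least 6.85-fold higher with Y15 than in untreated cells. MAFG (0.95), SRXN1 (0.57) and GPX2 (0.59) rose, while NQO1 (0.15, adjusted p = 0.24), GCLM (0.01, 0.96) and TXNRD1 (0.26, 0.079) did not pass. PRDX3, the peroxidase of mitochondria, was at 12.17 and 11.86 in untreated, 10.55 and 10.73 in Y15-treated and 12.35 and 12.07 in PF04554878-treated cells, lowest with Y15 (change -1.38, second probe -1.32). In polyamine metabolism, SAT1, which starts polyamine breakdown, rose by 1.44, and AMD1, which supplies their synthesis, fell (-0.95).

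Structural RNAs and histone transcripts mostly lack the poly(A) tail of messenger RNA. Of 17 structural RNAs other than small nucleolar RNAs, 12 rose and 1 fell (median 0.69, or 0.27 with median scaling, 1.07 above its median gene). With PF04554878 the list median was 1.16, and 3 of the 17 were higher and 6 lower with Y15 than with PF04554878. RN7SK, which holds the elongation kinase CDK9 inactive, was at 7.91 and 7.70 in untreated, 11.41 and 11.28 in Y15-treated and 10.01 and 10.04 in PF04554878-treated cells. Both compounds were above untreated cells and Y15 was highest (change 3.54 ± 0.10, second probe 3.08). RNA18SN5, a ribosomal RNA, was at 9.21 and 9.39 untreated, 11.34 and 11.42 with Y15 and 11.36 and 11.30 with PF04554878, with both compounds above untreated cells (Y15 change 2.08). RNA5S9 (2.27), RNY4 (2.09), RNU1-1 (1.86) and RNY1 (1.82) rose, and RNU4ATAC of the minor spliceosome fell (-0.64). These RNAs have many genomic copies, which the probes may not separate.

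Of 88 small nucleolar and Cajal body RNAs, 34 rose and 8 fell, with 4 falls without untreated array 1, Y15 array 1 or Y15 array 2 (median 0.18, or -0.11 with median scaling, 0.70 above its median gene). SNORD14D was at 7.23 and 7.33 untreated and 9.43 and 9.03 with Y15 (change 1.95) and SNORA25 at 8.38 and 8.17 untreated and 10.27 and 10.13 with Y15 (change 1.93). SNORD14D lies in an intron of HSPA8. SNORD14C, of the same host, rose by 1.28, while HSPA8 messenger RNA did not pass. SNORA61 was the largest fall, at 9.59 and 9.88 untreated and 7.92 and 7.83 with Y15 (change -1.87). Of 26 replication-dependent histone genes, 13 rose and 2 fell (median 0.28, or -0.13 with median scaling, 0.67 above its median gene), with H2BC5 (1.61) and H2BC21 (1.37) highest. H4C3 fell (-1.02, from 13.68 and 13.83 to 12.79 and 12.67), and H3C8 was not detected on the Y15 arrays. Of 9 variant histone genes, which carry tails, 2 rose and 6 fell, with 2 falls without untreated array 2, Y15 array 1 or Y15 array 2 (median -0.31, which lay 0.04 below the median gene with median scaling and was 0.00 when scaled to the tested probes, where 4 rose and 3 fell), with H2AZ1 at 13.89 and 13.62 in untreated and 12.93 and 12.91 in Y15-treated cells (change -0.83). Histone genes are close copies too, and their probes may share signal. The lower mean intensity above background of the Y15 arrays moved with these rises, and its part in them was not tested.

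Genes of cell division were prominent among the largest falls. Of 29 genes of spindle assembly, 27 fell and 0 rose (median -1.11), 15 of them at least 2-fold. The 2 that did not pass still had changes below 0. ASPM, which organizes spindle poles, was at 9.89 and 10.31 in untreated and 8.23 and 8.02 in Y15-treated cells. The groups were well apart, with a change of -1.98 ± 0.17 (adjusted p = 9.4e-05). KIF4A, a motor of the spindle midzone, was at 9.21 and 9.20 untreated and 7.56 and 7.47 with Y15 (change -1.69), and PRC1, which bundles midzone microtubules, at 11.43 and 11.51 untreated and 10.18 and 10.16 with Y15 (-1.29). HMMR fell on 2 probes (-1.56 and -1.88), as did KIF11, the motor that separates spindle poles (-1.45 and -1.25). KIF20A (-1.55), KIF20B (-1.48), CKAP2L (-1.56), TPX2 (-1.44), DLGAP5 (-1.24) and TACC1 (-0.99) fell as well.

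KIF23 was at 8.78 and 8.87 in untreated, 7.52 and 7.33 in Y15-treated and 9.25 and 8.92 in PF04554878-treated cells. It was lowest with Y15 (change -1.40, difference between the compounds -1.67 ± 0.13, adjusted p = 1.1e-05). PRC1 had the same pattern, at 11.82 and 11.84 under PF04554878. AURKA and CCNB2 had the other order and were lowest under PF04554878, at 7.54 and 7.79 and at 8.44 and 8.44. These genes thus differed in which compound gave the lower level. Against PF04554878, 10 of 29 spindle assembly genes were higher and 11 lower with Y15, and 12 and 10 of 37 kinetochore genes. Among 27 cyclins and cell cycle kinases, 20 were higher with Y15 and 2 lower. Among 40 origin and fork genes, 27 were higher and 5 lower, and among 25 Fanconi and recombination repair genes, 16 and 2. Over all 11035 genes, 3785 were higher and 2871 lower.

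At the kinetochore, which holds chromosomes to the spindle, 32 of 37 genes fell and 0 rose (median -0.77). With detection required on all 4 arrays, 27 of 30 fell and 0 rose. CENPA, the histone that marks centromeres, was at 9.94 and 9.81 in untreated and 7.93 and 8.06 in Y15-treated cells and was not detected under PF04554878. The groups did not overlap, and the Y15 change was -1.88 ± 0.10 (second probe -1.35). CENPE fell on 2 probes (-1.68 and -1.13), as did OIP5 (-1.45 and -1.19), and the CENPF change was -1.62. MAD2L1, a spindle checkpoint protein, was at 10.97 and 10.13 untreated and 8.69 and 8.81 with Y15 (change -1.80), but its untreated arrays lay more than 0.5 apart and its second probe did not pass (-0.06). SGO1, which guards sister chromatids, was not detected on the Y15 arrays and was at least 1.56-fold lower. KNSTRN, which acts at kinetochores, fell (-1.63).

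Cyclins and cell cycle kinases fell in 24 of 27 cases and rose in 1 (median -0.82). With detection required on all 4 arrays, 21 of 25 fell and 1 rose. CDK1, the kinase that starts mitosis, was at 10.75 and 10.14 in untreated and 8.62 and 8.82 in Y15-treated cells, with changes of -1.73 and -1.37 on 2 probes, although its untreated arrays also lay more than 0.5 apart. CDKN3, a phosphatase of CDK1, fell (-1.63). CCNB2 was at 11.04 and 10.99 untreated and 9.81 and 9.81 with Y15 (-1.21), CCNA2 at 9.68 and 9.63 untreated and 8.53 and 8.49 with Y15 (-1.14) and AURKA at 10.68 and 10.77 untreated and 9.36 and 9.36 with Y15 (-1.36, second probe -1.39). All 3 had no overlap between groups. The rise was CCND3 (0.44), while CCND1 had a change of -0.28 (adjusted p = 0.22). MKI67, the proliferation marker Ki-67, was not detected on the Y15 arrays and was at least 1.53-fold lower. Of 16 E2F, MYBL2 and FOXM1 regulators, 9 fell and 2 rose (median -0.39, or 0.10 below the median gene with median scaling), with E2F5 (-1.09), LIN9 (-1.07) and TFDP1 (-0.99, second probe -1.15) lowest.

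**Figure D2:**
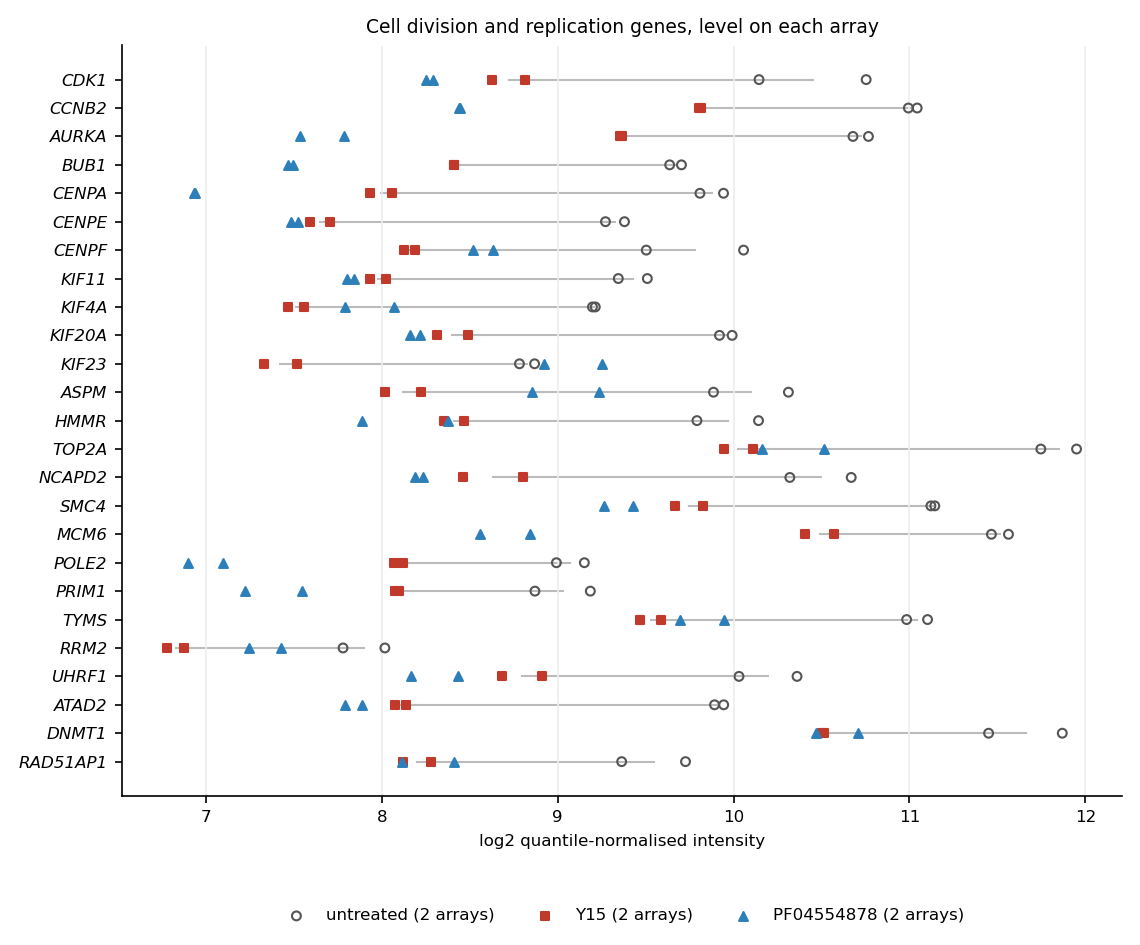
Level of 25 cell division and replication genes on each array, as log2 quantile-normalised intensity, with open circles for untreated cells, squares for Y15 and triangles for PF04554878 (2 arrays each). Grey lines join the means of the untreated and Y15 groups, and the Y15 arrays lie to the left of both untreated arrays in every gene shown, while the PF04554878 arrays lie on either side of the Y15 arrays. The genes were picked with their results known, so the shared fall under Y15 follows from the choice. MCM2 and MCM5, which did not pass, are not shown.

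Chromosome structure genes fell in 15 of 22 cases and rose in 0 (median -0.61). TOP2A, which untangles DNA, was at 11.75 and 11.95 untreated and 10.11 and 9.94 with Y15 (-1.82 ± 0.14), and NCAPD2, a condensin subunit, at 10.32 and 10.67 untreated and 8.80 and 8.46 with Y15 (-1.86 ± 0.15). Neither overlapped. Of 40 origin and fork genes, 24 fell and 1 rose (median -0.47), with 1 of the falls, MCM6, reaching 2-fold. MCM6, a helicase subunit, was at 11.47 and 11.56 in untreated, 10.57 and 10.41 in Y15-treated and 8.84 and 8.56 in PF04554878-treated cells, where PF04554878 was lower still (difference 1.79 ± 0.12, adjusted p = 5.6e-06). MCM2 (-0.24, adjusted p = 0.087) and MCM5 (-0.11, 0.36) did not pass. The rise was MCM8 (2.21), whose untreated arrays lay at 9.77 and 11.16 and whose second probe fell (-0.53).

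Nucleotide supply genes fell in 13 of 24 cases (8 without Y15 array 1) and rose in 1 (median -0.36), with TYMS, thymidylate synthase, at 10.98 and 11.10 untreated and 9.47 and 9.59 with Y15 (-1.51). RRM2, the regulated subunit of ribonucleotide reductase, was at 7.78 and 8.02 in untreated cells and undetected after Y15, at least 1.86-fold lower. In Fanconi and homologous recombination repair, 18 of 25 fell (11 without Y15 array 1) and 1 rose (median -0.56). RAD51AP1 (-1.34), ATM (-1.003, second probe -0.72) and FANCI (-0.92) fell, and the rise, XRCC2 (2.77), again had untreated arrays more than 0.5 apart (7.94 and 8.60). Chromatin copying genes fell in 16 of 27 cases and rose in 0 (median -0.44), led by ATAD2 (9.94 and 9.89 to 8.07 and 8.14, -1.81), UHRF1 (-1.40), CBX1 (-1.21) and DNMT1 (-1.15). These 8 division, replication and repair lists stayed below the median gene under each scaling.

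Promoters of mitotic genes are shown because a short element was more frequent in them than in the other tested genes. The element TTTGAA (both strands) was in 44 of 126 promoters of genes that fell at least 2-fold (34.9%), against 491 of 5393 that did not pass (9.1%), 873 of 8934 tested (9.77%) and 4212 of 27305 in the table (15.4%). Within 50 bases of the start it was in 26 of the 126 (20.6%) and 110 of the 5393 (2.04%). In the spindle list it was in 18 of 26 promoters (69.2%), in 16 of them within 50 bases (61.5%). In the kinetochore list it was in 14 of 29 (48.3%), and in the origin and fork list in 0 of 35. Its median position was 35 bases before the start in genes that fell 2-fold and 156 in genes that did not pass. CCAAT was in 70 of the 126 (55.6%), 38% of tested promoters and 20 of 26 of the spindle list (76.9%), but also in 18 of the 33 rises of 4-fold with untreated arrays within 0.5 (54.5%), 13 of 22 of the ATF4 list (59.1%) and 20 of 35 of the origin and fork list (57.1%). The promoters, 150 bases each, of KIF11 (chr10:92593030-92593179, plus strand), KIF4A (chrX:70290004-70290153, plus), PRC1 (chr15:90994486-90994635, minus) and HMMR (chr5:163460532-163460681, plus) are given with both elements in capitals.
KIF11: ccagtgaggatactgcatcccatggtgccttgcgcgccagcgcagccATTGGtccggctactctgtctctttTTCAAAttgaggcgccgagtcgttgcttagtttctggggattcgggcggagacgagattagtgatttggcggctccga
KIF4A: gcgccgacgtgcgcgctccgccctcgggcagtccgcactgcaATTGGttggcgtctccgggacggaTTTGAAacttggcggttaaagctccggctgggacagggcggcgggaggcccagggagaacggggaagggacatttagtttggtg
PRC1: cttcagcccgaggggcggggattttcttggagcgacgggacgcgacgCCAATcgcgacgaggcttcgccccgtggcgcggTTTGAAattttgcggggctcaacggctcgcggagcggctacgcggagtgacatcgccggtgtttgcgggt
HMMR: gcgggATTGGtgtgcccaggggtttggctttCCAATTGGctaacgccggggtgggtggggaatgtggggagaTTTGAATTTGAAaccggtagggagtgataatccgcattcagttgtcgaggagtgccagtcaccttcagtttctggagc
TTTGAA began 28 bases before the start in KIF11, 34 in KIF4A, 20 in PRC1 and 28 and 22 in HMMR, with a CCAAT box upstream of it in each. An E2F element (TTTGGCGC or TTTCGCGC) was in 10 of 35 promoters of the origin and fork list (28.6%), against 189 of 8934 tested (2.12%) and 322 of 27305 in the table (1.18%). These 10 were CDC6, MCM2, MCM3, MCM6, MCM7, MCM8, POLA1, POLA2, POLE and POLE2, and MCM2, MCM6 and MCM8 had the different results given above. MCM6 (chr2:135876494-135876613, minus strand, 120 bases) held it on both strands in each of 2 places, shown in capitals.
MCM6: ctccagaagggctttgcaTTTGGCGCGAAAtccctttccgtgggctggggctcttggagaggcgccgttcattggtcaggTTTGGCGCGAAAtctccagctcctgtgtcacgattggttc

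With quantile normalization, genes of the target and its focal adhesion partners passed in shares near those of all genes. PTK2, which codes for FAK, was at 11.35 and 11.42 in untreated, 11.21 and 11.12 in Y15-treated and 11.77 and 11.38 in PF04554878-treated cells. The Y15 arrays lay slightly below the untreated arrays, and the change of -0.22 ± 0.13 did not pass (adjusted p = 0.20). Of 32 genes of FAK and focal adhesion partners, 5 rose (15.6%, against 17.3% of all genes) and 7 fell (21.9%, against 22.3%). Their median was -0.07, or 0.26 below the median gene with median scaling. The counts were 0 and 29 with median scaling, 8 and 14 when scaled to the tested probes, 3 and 10 without untreated array 1, 3 and 6 without Y15 array 1 and 2 and 4 without Y15 array 2. The adaptor genes CRKL (0.80) and ZYX (0.50) rose, and TNS3 (-0.98), LIMS1 (-0.78) and VCL, the gene of vinculin (-0.62, second probe -0.38), fell, though second probes of ZYX (0.03) and LIMS1 (-0.17) did not pass. In the integrin list, 6 of 12 genes fell and 0 rose (median -0.29), with 2 falls without Y15 array 1, 3 without Y15 array 2, and 4 rises and 6 falls when scaled to the tested probes. The integrin median lay 0.33 below the median gene with median scaling. The 6 falls included the receptor subunits ITGAV (8.66 and 8.56 to 7.50 and 7.63, -1.04), ITGB5 (-0.60), ITGB1 (-0.50, second probe -1.03) and ITGA2 (at least 1.15-fold lower, undetected on the Y15 arrays). The others were ITGB1BP1 (-0.54) and ITGB3BP (-0.68), which code for an integrin-binding protein and a kinetochore protein and not for receptors.

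ITGAV was at 9.40 and 9.04 under PF04554878, above both untreated arrays, with a difference between the compounds of -1.66 ± 0.13 (adjusted p = 1.2e-05). Of 28 cell-cell adhesion and tetraspanin genes, 12 fell and 5 rose, against 5 and 4 without Y15 array 1, 7 and 3 without Y15 array 2 and 8 and 4 without untreated array 2 (median -0.25, or 0.31 below the median gene with median scaling). CD9, a tetraspanin, was at 10.14 and 9.83 in untreated, 8.44 and 8.68 in Y15-treated and 9.78 and 9.69 in PF04554878-treated cells, lowest with Y15 (change -1.43). CADM1 (-1.15) and DSP, the gene of desmoplakin (-1.38, second probe -0.22), fell, although this second DSP probe did not pass, and CTNND1 (1.89, second probe 0.74) and CLDN3 (0.83) rose.

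DKK1, a secreted Wnt inhibitor, was at 10.75 and 10.33 in untreated, 8.42 and 8.55 in Y15-treated and 6.93 and 7.03 in PF04554878-treated cells. The 3 groups did not overlap, and the Y15 change of -2.06 ± 0.14 was the largest fall of the comparison, though a second probe did not pass (-0.31). Of 25 Wnt pathway genes, 10 fell (6 without Y15 array 1 or 2) and 4 rose (2 without any 1 array), and the median of -0.16 lay 0.10 below the median gene, and 0.02 above it with median scaling. FZD8 (-0.83), ZNRF3 (-0.73) and LRP5 (-0.69) fell, while FZD7 rose (1.22, second probe 0.47). HOX genes, which keep positional identity, passed in shares near those of all genes. Of 19, 4 were higher (21.1%, against 17.3%) and 5 lower (26.3%, against 22.3%). There were 1 higher and 3 lower without untreated array 2, Y15 array 1 or Y15 array 2. Their median of -0.07 was 0.03 above the median gene with median scaling. HOXB8 was at 11.29 and 11.50 untreated and 9.51 and 9.66 with Y15 (-1.81 ± 0.11), and HOXB7 (-0.65) and HOXB3 (-0.83) also fell, but a second HOXB3 probe did not pass (0.06).

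Markers of the C-cell identity of the line mostly fell where they passed. Of 30, 13 fell (8 without Y15 array 1) and 5 rose, with 3 rises without untreated array 1, Y15 array 1 or Y15 array 2 (median -0.14, or 0.20 below the median gene with median scaling). RET, the receptor kinase mutated in medullary carcinoma, was at 12.11 and 12.38 in untreated, 11.36 and 11.33 in Y15-treated and 12.17 and 12.11 in PF04554878-treated cells, lowest with Y15 (change -0.90, second probe -0.68). GFRA4, its coreceptor, fell (-0.95), as did SCG3 (-0.89), PAM (-0.66), SYP (-0.58) and CHGB (-0.44). CALCA (-0.10, adjusted p = 0.49, but 0.99 and passing when arrays were scaled to the tested probes), CHGA (-0.17, 0.39) and NKX2-1 (-0.02, 0.91) did not pass, and SYT4 (0.97) and ISL1 (0.53) rose. CD68, an immune marker that other cells express as well, rose by 1.89 on its brightest probe and had 0.14 on the next.

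In lipid synthesis, FASN, fatty acid synthase, was at 11.04 and 11.37 in untreated, 9.36 and 9.36 in Y15-treated and 11.02 and 11.01 in PF04554878-treated cells. It was lowest with Y15 (change -1.85 ± 0.12, difference between the compounds -1.66 ± 0.12). FADS1 (-1.07), ACACA (-0.77, second probe -0.72) and SQLE (-0.76, second probe -1.44) fell, whereas HSD17B7 (2.34, with untreated arrays more than 0.5 apart), MSMO1 (0.92) and INSIG1 (0.80) rose. Of 32 genes, 8 rose (4 without Y15 array 2) and 10 fell (6 without Y15 array 1), and the median of -0.01 lay 0.05 above the median gene, and 0.24 below it with median scaling. Of 77 oxidative phosphorylation subunits, 30 fell (39%, against 22.3% of all genes) and 3 rose (3.9%, against 17.3%). The median was -0.23, or 0.19 below the median gene with median scaling. It was -0.17 without untreated array 1 and -0.32 without untreated array 2. In 9 of the 77 the untreated arrays lay more than 0.5 apart, against 339 of all 11035 genes. There were 8 falls without Y15 array 1 and 14 without Y15 array 2, and 18 falls and 9 rises when scaled to the tested probes. They were led by NDUFA11 (-0.99) and COX5B (-0.94), with no change of 2-fold. POLR2B, the second largest subunit of RNA polymerase II, fell (-1.001).

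**Figure D3:**
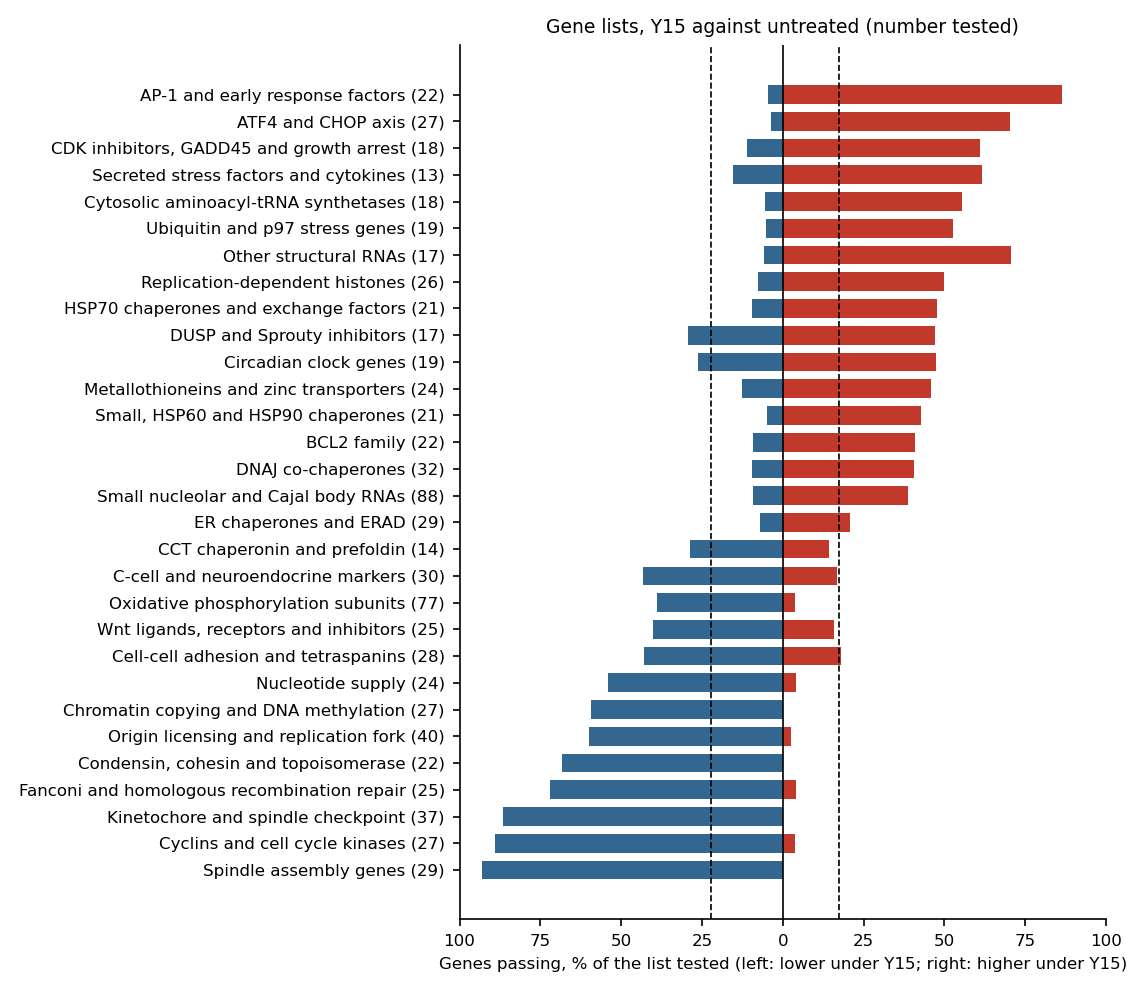
Share of the tested genes of 30 lists that passed, in % (right, higher under Y15; left, lower under Y15), with the number tested in brackets. Dashed lines mark the shares over all 11035 genes, 17.3% higher and 22.3% lower, and the lists run from early response factors at the top to spindle assembly genes at the bottom; with median scaling the median gene moved to -0.81 and the shares of rises shrank, while among the lists shown the medians of the ER and Wnt lists changed their side of the median gene and that of the CCT list moved from level with it to below it.

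Some genes were detected in 1 of the groups alone. They met the detection filter only through that group, which fixed the direction of their change, so their passing is no separate support. Counts of list members given above include such genes. There were 127 genes detected on both Y15 arrays and neither untreated array, of which 98 passed. Of all genes tested, 17.3% passed as higher and 22.3% as lower. HMOX1, NPAS4, SGK1 (a stress kinase, at least 2.92-fold higher), CHAC1, ZNF697 (at least 2.31-fold), GSDMB (at least 2.23-fold) and SNORA28 (at least 2.21-fold) had the largest bounds. In the other direction, 859 genes were detected on both untreated arrays and neither Y15 array, of which 266 passed, with RRM2, CEP152 (a centriole protein, at least 1.73-fold lower), MYT1L (at least 1.62-fold), AGPAT5 (at least 1.60-fold) and KIF18A (at least 1.59-fold) leading. The Y15 arrays also detected fewer probes in all.

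A separate set of rises came with a gap between the untreated arrays. Among all 11035 genes, 339 (3.07%) had untreated arrays more than 0.5 apart, against 115 of 377 that rose 2-fold (30.5%), 89 of 132 that rose 4-fold (67.4%) and 13 of 157 that fell 2-fold (8.28%). In all 89 genes untreated array 2 was the higher, and Y15 array 1 was above Y15 array 2. On average these 89 genes were at 8.71 and 9.84 in untreated, 11.99 and 11.57 in Y15-treated and 10.56 and 10.70 in PF04554878-treated cells. The other 43 genes that rose 4-fold had means of 8.17 and 8.12, 10.80 and 10.80, and 8.53 and 8.53.

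Among the 89 were MAGT1 (8.03 and 9.08 untreated, 12.30 and 12.05 Y15, change 3.62 ± 0.29), CRCP (8.60 and 9.69, 12.36 and 12.14, 3.10), TMEM267 (3.07), FKBP14 (3.002), SLC25A51 (2.99) and CCDC125 (2.34). They code for an ion transporter, a polymerase III subunit, a membrane protein, a collagen chaperone, a mitochondrial carrier and a coiled-coil protein. Of the 89, 11 were zinc finger genes named ZNF, against 334 of all 11035 genes. The other 43 rises held 0, but they are too few for this to be informative at that share. MAGT1, CRCP, TMEM267, FKBP14 and SLC25A51 were named by a rule that required both Y15 arrays to lie outside the untreated range. Their separation from the untreated arrays is thus no added support. Of 150 unnamed probes that rose 2-fold, 73 had the same gap. Among the falls described above, those of CDK1, MAD2L1, CENPF, MKI67, DSP, ITGB3BP and COX5B also had it.

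**Figure D4:**
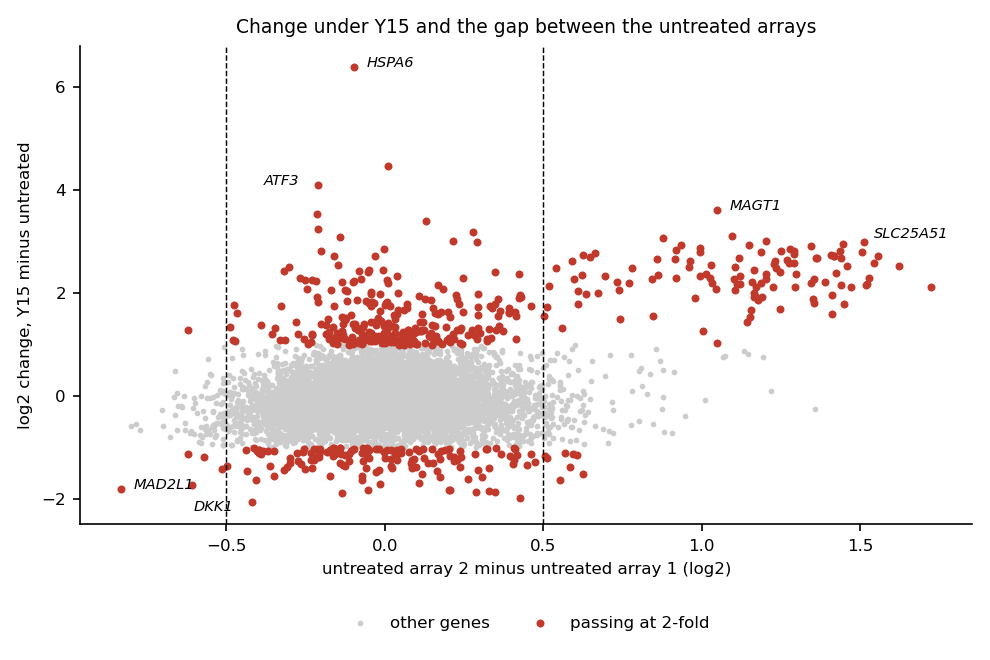
Change under Y15 (vertical axis, log2) against the difference between the 2 untreated arrays (horizontal axis, log2), 1 point per gene, with genes passing at 2-fold in red and the rest in grey. Dashed lines mark a gap of 0.5, beyond which lie 115 of the 377 genes that rose 2-fold and 13 of the 157 that fell.

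A second probe gave another reading of 183 of the genes that passed at 2-fold. Where the untreated arrays lay within 0.5, the second probe passed in the same direction for 51 of 70 rises, in the opposite direction for 1 and not at all for 18 (median change 1.33 on the brightest and 0.59 on the next probe). For the 49 rises whose untreated arrays lay apart, it passed the same way for 13, the opposite way for 13 and not at all for 23 (medians 2.27 and -0.10). For the 64 falls it passed the same way for 46 and the opposite way for 0 (medians -1.20 and -0.66). At 4-fold, the second probe rose in 7 of 7 genes with untreated arrays within 0.5 and in 10 of 39 with untreated arrays apart, and it fell in 11 of the 39.

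Genes that rose on 2 probes despite the gap included CREB1 (2.17 and 2.23), BLZF1 (2.19 and 2.61), PNPT1 (1.90 and 2.90) and CSF2RA (2.28 and 2.02). KLHL28, whose untreated arrays lay within 0.5, rose by 1.75 and 1.65. Which parts of a transcript the probes cover was not examined here, and the part of the gap in these rises was not tested.

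**Figure D5:**
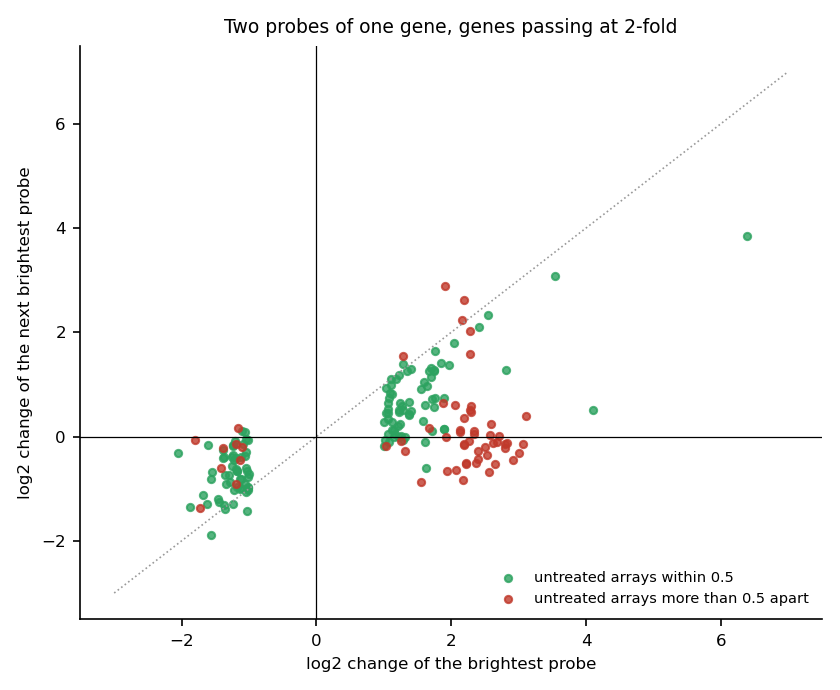
Change of the next brightest probe (vertical axis, log2) against that of the brightest probe (horizontal axis, log2) for the 183 genes with a second kept probe that passed at 2-fold, colored by the gap between the untreated arrays. The dotted line marks equal change, and red points (gap over 0.5) gather to the right at a second-probe change near 0, with a median of -0.10 among the rises.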

How the data were processed

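The 6 arrays held labeled cRNA of TT cells, and Illumina BeadChips were summarized in GenomeStudio, whose version is not given in the sources used here. A HumanRef-8 chip is named in the methods, while the probe identifiers matched the annotation of a HumanHT-12 chip. The deposited intensity per probe was not normalized, and each came with a detection p-value deposited by the authors. A deposited log2 table, which the authors made by quantile normalization with lumi, differed from the values computed here by at most 5e-09. Of 47317 probes, 30111 named 1 gene in the annotation, 8 named several and 17198 none, and symbols were updated for 30072.

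Intensities were log2-transformed and quantile-normalised over all probes and 6 arrays, with no pseudocount. Group means were fitted in limma 3.58.1 (R 4.3.3) over all 6 arrays, which left 3 residual degrees of freedom, and p-values were two-sided and Benjamini-Hochberg adjusted over 11035 genes. No precision beyond that of 2 arrays per group can be claimed. The median SE of a change was 0.10. The script was tested on simulated data with known changes. The replicate numbers of the labels were not taken to pair the arrays, since same-numbered arrays did not all deviate together. The r was -0.267 for untreated and Y15, 0.209 for untreated and PF04554878, and -0.103 for Y15 and PF04554878 arrays.

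Genes were named as the largest changes passing at 2-fold whose Y15 arrays both lay outside the range of the untreated arrays. Also named were the largest changes on 2 probes and leading and defining members of each list. Members of small counts and genes the study names for Y15 were added. The members and lists were chosen with earlier results of these data known. Alternatives were other scaling, background correction, detection filters, probe averaging, 4 arrays only, another prior, the replicate block and leaving out each array.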

Additional observations from a re-analysis of the deposited data

How the results depend on the processing

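Scaling changed how many genes passed and in which direction. Of 4378 genes, 1914 were higher and 2464 lower with quantile normalization. Scaling each array to the median of all probes gave 9460 (390 higher, 9070 lower) and to that of the tested probes 6800 (3820 and 2980). At 2-fold the 534 genes became 4272 (166 and 4106), 835 (519 and 316) and, after background correction, 1420 (723 and 697). At 4-fold, 133 became 268 after background correction and 44 among genes with untreated arrays within 0.5, an alternative added after seeing the data, and 179 (12 higher, 167 lower) with scaling to all probes. Of the 534 genes, 323 (60.5%) passed in the same direction at 2-fold with scaling to all probes and 465 (87.1%) with scaling to the tested probes. The cause of these shifts was not tested.

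Leaving out 1 array gave 2348 to 3746 passing genes, and the values without Y15 array 1 (2348) and without Y15 array 2 (2526) were the lowest. The lone array of a group was then assumed to vary like the other groups. The ranges were 534 to 585 at 2-fold, 89 to 157 at 4-fold and 5434 to 6680 against PF04554878. The comparison with PF04554878 (6656 genes, 3785 higher) gave 5370 (2341 higher) and 5980 (2935 higher) with the other scalings. The replicate block gave 4251 genes in place of 4378, 534 at 2-fold, 133 at 4-fold and 6632 against PF04554878. Crossed pairing, added after seeing the data, gave 4740, 534, 133 and 6852. Among the named genes, the call was lost without 1 of the 4 arrays for BCL2, BCL2L10, BMAL1, CCND3, CHGB, DNAJC24, EIF2AK1, FARSB, GSDMB, H3C8, HOXB7, HYOU1, IER3, ITGA2, ITGB1, ITGB1BP1, ITGB3BP, MKI67, MTF1, MYC, PER2, RB1, RGS4, RNU4ATAC, SHMT1, SLC39A10, SLC39A8, SPRED1, SPRED2, SRXN1, SYP, TRAP1, VCL, ZMAT3 and ZYX, each with its direction kept.

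With scaling to the median of all probes, 31 of 279 named genes turned in direction. Changes below 0 took the place of those above 0 for AEN (-0.22), CCND3 (-0.67), CD14 (-0.60), CLDN3 (-0.19), CRKL (-0.29), DNAJA4 (-0.01), DNAJB2 (-0.11), GCLM (-0.94), GPX2 (-0.25), HARS1 (-0.36), HSP90AB1 (-0.44), HSPA5 (-0.96), HSPH1 (-0.07), INSIG1 (-0.36), ISL1 (-0.54), KLF9 (-0.02), MCL1 (-0.28), MSMO1 (-0.24), MT1X (-0.06), MTF1 (-0.33), MYC (-0.66), NQO1 (-0.84), RGS1 (-0.07), RGS11 (-0.26), RGS16 (-0.3), SRXN1 (-0.58), SYT4 (-0.15), TARS1 (-0.14), TEF (-0.42), TXNRD1 (-0.86) and ZYX (-0.37). With scaling to the tested probes, 7 turned to values above 0, BCL2L10 (0.31), CALCA (0.99), H3C8 (0.51), HLA-DRA (0.30), HSPA8 (0.78), ITGA2 (0.22) and LUM (0.53). Requiring detection on all 4 arrays left HOXB3 with its second probe, at 0.06. In the other alternatives no named gene turned. With 2 arrays per group and unlike mean intensity, changes near the shift of the median gene were not resolved, and genes near background had lower precision.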
